A study of Mus musculus with 8 samples.

Results

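The collagen gene family was described in 3 mouse cell lines of epithelioid hemangioendothelioma, a rare tumour of vascular endothelium. Its members were all protein-coding genes of the count matrix whose symbol has the form Col, number, a, number, which gave 44 of 55401 gene identifiers and 27 collagen types. They were grouped as 11 fibrillar genes, 8 basement membrane genes (types IV, XV and XVIII), 9 genes of fibril-associated collagens with interrupted triple helices (FACIT), and 16 others. The RNA sequencing libraries came from EHE26 (n = 2), EHE17 (n = 3) and EHE6 (n = 3). The labels give the line of each library and no genotype, treatment, passage or clone, and they do not say whether replicates were separate cultures, so p-values measure only the spread between these libraries.

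Collagens are extracellular proteins built of 3 chains wound into a triple helix, and each chain has its own gene. Fibrillar collagens such as types I, III and V form the fibres of connective tissue, while type IV collagen forms the sheet-like network of basement membranes, including the one beneath the endothelium of blood vessels. Chains are hydroxylated and folded in the endoplasmic reticulum, trimmed outside the cell, crosslinked, and bound by integrins and discoidin domain receptors.

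Libraries held 44620965 to 96237665 counts. Values are CPM, counts scaled to library size with trimmed-mean (TMM) factors, and comparisons between genes use CPM per kilobase of exon. Of 10 endothelial marker genes, all had reads in every library, with Pecam1 at 1179 to 1675 CPM and Vwf at 0.526 to 19.4 CPM. The first principal component, with 56.2% of the variance, separated a first set, replicates 1 and 2 of EHE17 and EHE6 (-122 to -103), from a second set, both libraries of EHE26 and replicate 3 of the other lines (41.7 to 148). Genes with a read numbered 20066 to 20682 in the second set and 24462 to 25177 in the first. Library totals followed the set as well, at 44620965 to 55802651 counts in the second and 69366708 to 96237665 in the first. The part of depth in the numbers of genes with a read was not tested. EHE26 lies wholly in the second set, so line and set cannot be told apart for it except through the replicate 3 libraries. A model that fits line and set together, called the set model, therefore stands beside the model with line alone. It assumes the same shift between sets in every line, while replicate 3 shifted in opposite directions in EHE17 and EHE6 for 11 collagen genes.

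The basement membrane chains Col4a1, Col4a2 and Col18a1 held most collagen reads in all 3 lines. EHE26 differed from the other lines in the FACIT gene Col14a1, the only member called with line alone, and had a higher ratio of Col4a1 to Col4a2 than any other library. Col1a2 was near 0 in both EHE26 libraries and in 1 EHE17 library. Col3a1 was lower in every EHE6 library than in any library of the other lines. The type VI genes Col6a1 and Col6a2 were high in EHE26 and in 1 EHE6 library. In bulk libraries fewer cells of a type and less RNA per cell cannot be told apart.

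In the edgeR quasi-likelihood test a gene was called where the Benjamini-Hochberg adjusted p, over 18882 genes, was under 0.05 and the log2 fold change reached 1 in either direction. Of the 44 collagen genes 38 passed the filter on low counts and were tested. The other 6, Col24a1, Col9a1, Col19a1, Col6a4, Col10a1 and Col26a1, stayed at or below 0.651 CPM. In EHE26 against EHE6 1 collagen gene was called, beside 1.26% of all genes tested, and in EHE26 against EHE17 also 1, beside 1.08%. In EHE17 against EHE6 edgeR called 0 collagen genes, beside 0.143% of all genes. DESeq2 called 12 collagen genes in EHE26 against EHE6 (5.01% of all genes it tested), 14 in EHE26 against EHE17 (5.47%) and 3 in EHE17 against EHE6 (1.25%). At an unadjusted p under 0.05 stood 14 of the 38 in EHE26 against EHE6 (15.9% of all genes), 17 in EHE26 against EHE17 (16.6%) and 8 in EHE17 against EHE6 (6.90%). The median log2 fold change of the 38 was -0.41 in EHE26 against EHE6, 0.02 in EHE26 against EHE17 and -0.25 in EHE17 against EHE6, where all genes had -0.11, -0.11 and -0.03. The 3 comparisons share libraries, and genes that passed the filter only through the line where they are high had to differ, so these counts are descriptions. Without EHE6 replicate 3 the edgeR count was 9 in each EHE26 comparison. All genes called then also rose, to 1632 of 19010 against EHE6 and 1415 against EHE17. Without EHE17 replicate 3 the collagen count was 4 in EHE26 against EHE6, 3 in EHE26 against EHE17 and 1 in EHE17 against EHE6. All genes called were then 293, 147 and 22 of 19019. The collagen count was 0 in EHE26 against EHE6 without EHE6 replicate 1 or 2, beside 65 and 85 of all genes. It was 0 in EHE26 against EHE17 without EHE17 replicate 1 or 2, beside 7 and 2 of all genes.

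Libraries of the 2 lines did not overlap for 18 collagen genes in EHE26 against EHE6, 11 higher and 7 lower, beside 31.3% of all genes (16.0% higher and 15.3% lower). In EHE26 against EHE17 the number was 22, 14 higher and 8 lower, beside 39.0% (18.7% and 20.3%), and in EHE17 against EHE6 it was 7, 2 higher and 5 lower, beside 12.2% (7.25% and 4.94%). In the set model 3 collagen genes were called in EHE26 against EHE6 (Col14a1, Col3a1 and Col4a4), beside 1.89% of all genes. Under that model 2 were called in EHE26 against EHE17 (Col14a1 and Col4a4), beside 1.69%, and 1 in EHE17 against EHE6 (Col3a1), beside 0.540%.

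**Figure D1:**
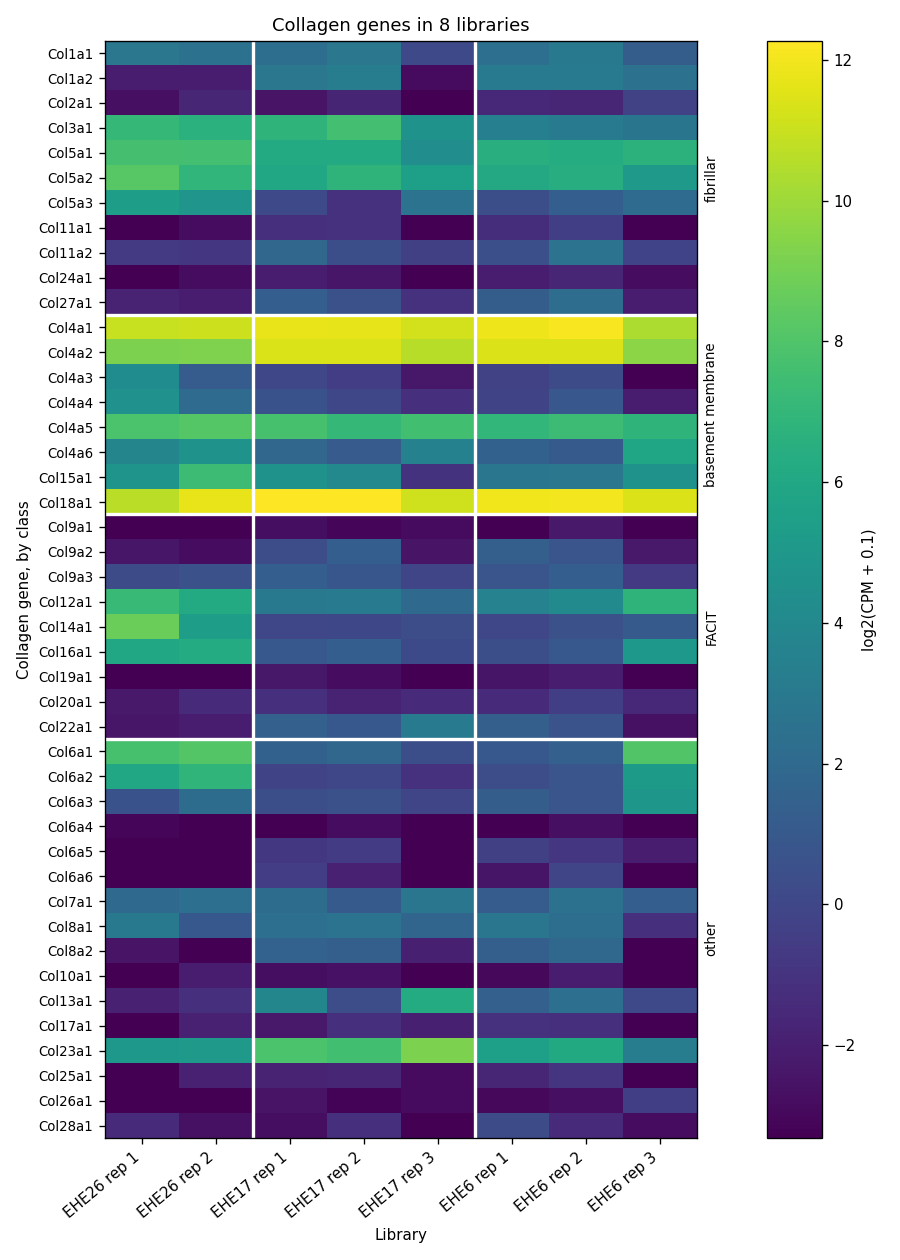
All 44 collagen genes (rows, grouped by class) in the 8 libraries (columns), coloured by log2(CPM + 0.1). Col4a1, Col4a2 and Col18a1 are the highest rows in every library, and Col6a1 and Col6a2 are high in both EHE26 libraries and in EHE6 replicate 3.

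Summed over all 44 genes, collagen reads came to 6170 and 7855 CPM in EHE26, 11832, 11804 and 7154 CPM in EHE17, and 10954, 11717 and 5680 CPM in EHE6. The 8 basement membrane genes gave 4513 to 11387 CPM of these sums. With Col4a1, Col4a2 and Col18a1 left out, the other 41 genes summed to 1971 and 1581 CPM in EHE26, 798, 785 and 1002 CPM in EHE17, and 415, 506 and 840 CPM in EHE6. On this remainder both EHE26 libraries lay above every EHE17 and EHE6 library. The FACIT sum was 643 and 197 CPM in EHE26, 17.5, 17.7 and 15.6 CPM in EHE17, and 21.5, 26.5 and 147 CPM in EHE6. The fibrillar sum was 692 and 459 CPM in EHE26, 271, 406 and 97.7 CPM in EHE17, and 186, 206 and 157 CPM in EHE6.

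Among basement membrane genes, Col18a1, the core chain of a heparan sulfate proteoglycan whose end fragment is endostatin, had the highest mean level per kilobase of all collagens. Among 18860 genes ranked by CPM per kilobase it stood at place 95 in EHE26, 40 in EHE17 and 46 in EHE6. It was at 1629 and 3497 CPM in EHE26, 4825, 4963 and 2276 CPM in EHE17, and 3958, 4034 and 2782 CPM in EHE6. The 3 lines overlapped, and the log2 fold change was -0.49 ± 0.47 (SE) in EHE26 against EHE6 and -0.65 ± 0.47 in EHE26 against EHE17.

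Col4a1, which encodes the chain found with 1 partner chain in nearly all basement membranes, was at 1992 and 2172 CPM in EHE26, 3528, 3387 and 2324 CPM in EHE17, and 3783, 4380 and 1292 CPM in EHE6. Its partner Col4a2 was at 579 and 604 CPM in EHE26, 2680, 2669 and 1552 CPM in EHE17, and 2798, 2797 and 767 CPM in EHE6. Both EHE26 libraries lay below every library of the other lines for Col4a2, while for Col4a1 they lay below all but EHE6 replicate 3. The log2 fold change of Col4a2 was -1.84 ± 0.58 in EHE26 against EHE6 (edgeR adjusted p = 0.212) and -1.96 ± 0.58 in EHE26 against EHE17 (adjusted p = 0.176), neither of them called. The set model gave -0.78 (adjusted p = 0.431) and -1.07 (adjusted p = 0.212). Without EHE6 replicate 3 both were called, at -2.24 (adjusted p = 0.0135) and -1.97 (adjusted p = 0.0157).

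The helix made of these chains holds 2 copies of the Col4a1 product and 1 of Col4a2. The per-kilobase ratio of Col4a1 to Col4a2 was 3.05 and 3.19 in EHE26, 1.17, 1.13 and 1.33 in EHE17, and 1.20, 1.39 and 1.49 in EHE6. Ratios were not tested. Each EHE26 value was above each of the other 6, whichever set a library was in. Both genes lie on chromosome 8 of mm10 and are read in opposite directions, Col4a1 from the minus strand (chr8:11198423-11312826) and Col4a2 from the plus strand (chr8:11312805-11449287), and their annotated starts overlap by 22 bases. The strand setting of the counting is not given in the sources used here, so reads within the overlap cannot be assigned.

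Col4a5, on the X chromosome, was the next most abundant type IV chain, at 231 and 286 CPM in EHE26, 217, 131 and 189 CPM in EHE17, and 130, 163 and 112 CPM in EHE6. Both EHE26 libraries lay above the other 6, with log2 fold changes of 0.94 ± 0.29 against EHE6 (adjusted p = 0.212) and 0.53 ± 0.30 against EHE17 (adjusted p = 0.387). Col4a6, its neighbour at a distance of 1308 bases on the opposite strand, was at 13.9 and 24.2 CPM in EHE26, 3.49, 2.09 and 11.7 CPM in EHE17, and 2.80, 2.06 and 60.4 CPM in EHE6. The Col4a5 to Col4a6 ratio per kilobase ran over 19.7 and 14 in EHE26, 73.7, 74.5 and 19.2 in EHE17, and 55.1, 94.0 and 2.2 in EHE6, so that every library of the second set lay below every library of the first.

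Col4a3 and Col4a4, whose chains join with that of Col4a5 in the basement membrane of the kidney glomerulus, were rare in EHE17 and EHE6. Col4a3 was at 19.2 and 2.24 CPM in EHE26, 0.907, 0.609 and 0.10 CPM in EHE17, and 0.754, 1.16 and 0 CPM in EHE6. Col4a4 was at 23.6 and 4.25 CPM in EHE26, 1.42, 0.886 and 0.321 CPM in EHE17, and 0.808, 1.75 and 0.126 CPM in EHE6. For both genes the EHE26 libraries lay above all others and differed widely from each other. The log2 fold change of Col4a4 was 3.95 ± 1.14 against EHE6 (adjusted p = 0.181) and 3.99 ± 1.14 against EHE17 (adjusted p = 0.163). In the set model Col4a4 was called at 6.10 against EHE6 (adjusted p = 0.0406) and 5.86 against EHE17 (adjusted p = 0.0429), while Col4a3 was at 7.82 (adjusted p = 0.0572) and 7.60 (adjusted p = 0.0542). Without EHE6 replicate 3 Col4a4 was called against EHE17, at 3.98.

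The Col4a3 to Col4a4 ratio per kilobase was 0.863 and 0.560 in EHE26, 0.682, 0.732 and 0.333 in EHE17, and 0.994 and 0.704 in EHE6 replicates 1 and 2, a narrower spread than that of either level. They are read in opposite directions from starts that are 71 bases apart on chromosome 1. That whole interval is shown because 2 members that were high together in EHE26 start at its ends. It is given on the minus strand, from the Col4a3 start to the Col4a4 start (GRCm38.p6, chr1:82586850-82586920, from the RefSeq promoter table), in lower case throughout, since it holds none of 3 motifs searched on either strand: the TATA box (TATAAA), the CCAAT box (CCAAT) and the GC box (GGGCGG).
Col4a4 and Col4a3: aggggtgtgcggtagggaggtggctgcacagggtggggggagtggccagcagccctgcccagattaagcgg

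Col15a1, which encodes a proteoglycan collagen at the outer face of basement membranes, was at 26.5 and 165 CPM in EHE26, 25.7, 15.9 and 0.381 CPM in EHE17, and 7.0, 7.31 and 24.5 CPM in EHE6. Both EHE26 libraries exceeded all others, 1 of them by a small margin, and the log2 fold change was 2.89 ± 1.35 against EHE6 (adjusted p = 0.336) and 2.77 ± 1.35 against EHE17 (adjusted p = 0.334).

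**Figure D2:**
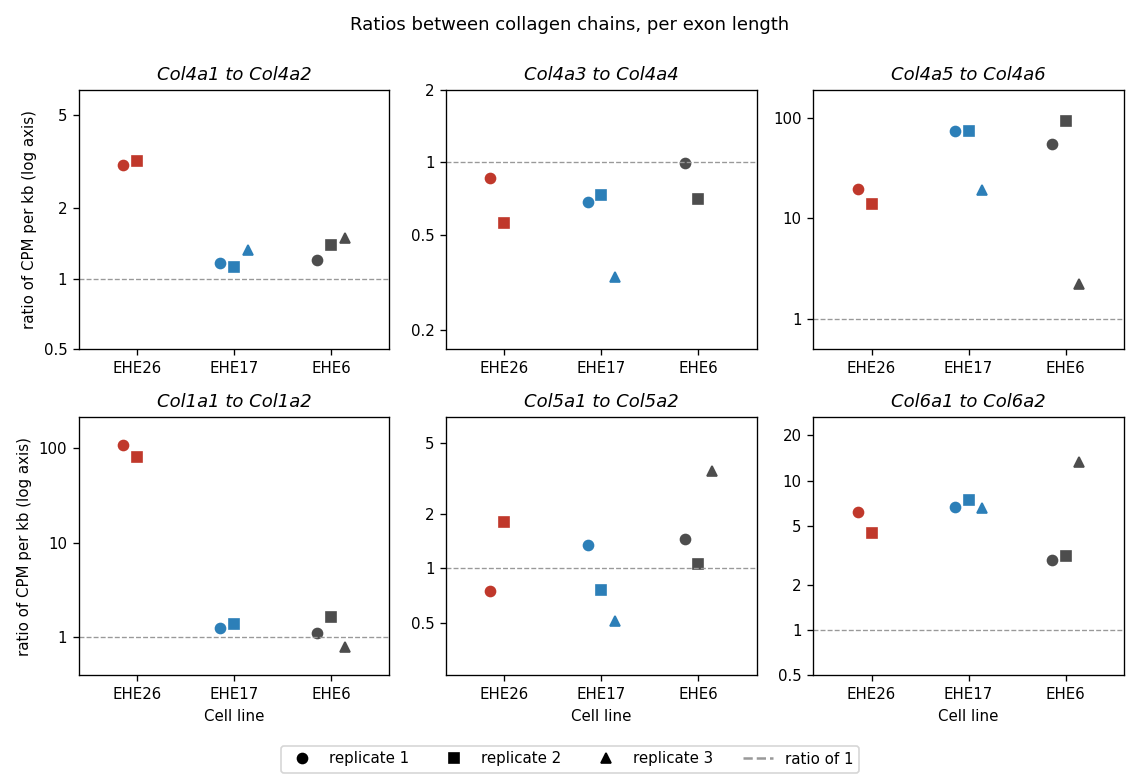
Per-kilobase ratios of 6 pairs of collagen chains by line, on log axes, with 1 point a library and the dashed line at a ratio of 1. The Col4a1 to Col4a2 ratio is 3.05 and 3.19 in EHE26 and at most 1.49 elsewhere; the Col1a1 to Col1a2 ratio of EHE17 replicate 3 and the Col4a3 to Col4a4 ratio of EHE6 replicate 3 are left out, since a gene had 3 counts or fewer.

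Among fibrillar genes, Col5a1, Col5a2 and Col3a1 were the most abundant. Col3a1, the single chain of type III collagen of vessel walls and other elastic tissues, was at 136 and 102 CPM in EHE26, 116, 198 and 24.9 CPM in EHE17, and 10.6, 8.82 and 6.49 CPM in EHE6. Every EHE6 library lay below every library of the other lines, and EHE17 replicate 3 was the lowest outside EHE6. The log2 fold change was 3.78 ± 0.72 in EHE26 against EHE6 (adjusted p = 0.0558) and 3.71 ± 0.68 in EHE17 against EHE6 (adjusted p = 0.137), neither called. The set model called Col3a1 in both, at 4.75 (adjusted p = 0.0119) and 3.35 (adjusted p = 0.0320). In the first set alone, with 2 libraries a line, EHE17 against EHE6 gave 4.03 (adjusted p = 0.0201). Without EHE17 replicate 3 both comparisons were called, at 3.78 (adjusted p = 0.00495) and 4.18 (adjusted p = 0.0194), and without EHE6 replicate 3 EHE26 against EHE6 was called at 3.62 (adjusted p = 0.0400). EHE26 and EHE17 differed by 0.08 ± 0.69.

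Col3a1 lies on the plus strand of chromosome 1 (chr1:45311538-45349706), 24.6 kb from Col5a2 on the opposite strand. The 250 bases before its start are shown because its level set EHE6 apart from both other lines (GRCm38.p6, chr1:45311288-45311537, plus strand, RefSeq promoter table). Capitals mark a match to the letters of the TATA box (TATAAA), whose first base is 117 bases before the start. Neither a CCAAT box nor a GC box was found on either strand.
Col3a1: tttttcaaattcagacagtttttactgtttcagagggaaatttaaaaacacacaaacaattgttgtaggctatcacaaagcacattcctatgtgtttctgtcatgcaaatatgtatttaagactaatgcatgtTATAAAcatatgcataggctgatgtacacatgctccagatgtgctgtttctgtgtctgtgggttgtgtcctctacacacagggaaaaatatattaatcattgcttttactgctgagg

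Over all 32851 such windows of 250 bases in the table, 12.4% held a TATA box, 33.8% a CCAAT box and 32.7% a GC box on either strand. Of 38 windows of 35 collagen genes found there, 5 held a TATA box, 13 a CCAAT box and 22 a GC box. These matches are descriptions of letters, and no binding was measured. The windows of Col4a1 and Col4a2 overlap.

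Col5a1 and Col5a2 encode the chains of type V collagen, which takes part in starting fibrils. Col5a1 was at 203 and 199 CPM in EHE26, 74.4, 75.7 and 20.1 CPM in EHE17, and 87.4, 80.6 and 103 CPM in EHE6. Col5a2 was at 305 and 124 CPM in EHE26, 62.0, 112 and 44.5 CPM in EHE17, and 68.2, 85.8 and 33.5 CPM in EHE6. Both were above all other libraries in EHE26. Their log2 fold changes in EHE26 were 1.15 ± 0.50 and 1.78 ± 0.56 against EHE6 and 1.82 ± 0.50 and 1.55 ± 0.56 against EHE17, with adjusted p values of 0.151 to 0.314. The third type V chain, Col5a3, was at 40.7 and 28.2 CPM in EHE26, 0.969, 0.376 and 6.04 CPM in EHE17, and 1.27, 2.41 and 4.22 CPM in EHE6. Its EHE26 libraries were above all others, at 3.71 ± 1.06 against EHE6 (adjusted p = 0.180) and 3.81 ± 1.07 against EHE17 (adjusted p = 0.157). Both were called without EHE17 replicate 3.

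Type I collagen, the main collagen of connective tissue, was rare in all lines. Col1a1 was at 7.23 and 5.53 CPM in EHE26, 4.83, 7.11 and 1.0 CPM in EHE17, and 5.19, 7.75 and 2.37 CPM in EHE6, with overlapping lines. Col1a2, whose chain joins that of Col1a1, was at 0.129 and 0.132 CPM in EHE26, 7.23, 9.73 and 0.0401 CPM in EHE17, and 8.94, 9.02 and 5.65 CPM in EHE6. These are 7 and 6 counts in the EHE26 libraries and 2 counts in EHE17 replicate 3, so Col1a2 was near 0 in both EHE26 libraries and in 1 of 3 EHE17 libraries. The log2 fold change of Col1a2 was -5.90 ± 1.81 in EHE26 against EHE6 (adjusted p = 0.201) and -5.43 ± 1.77 in EHE26 against EHE17 (adjusted p = 0.206). In the set model it was -4.48 (adjusted p = 0.225) and -3.02 (adjusted p = 0.586). Without EHE17 replicate 3 Col1a2 was called in both, at -5.90 (adjusted p = 0.00495) and -6.00 (adjusted p = 0.0157). The Col1a1 to Col1a2 ratio per kilobase was 106 and 79.5 in EHE26, 1.27 and 1.38 in EHE17 replicates 1 and 2, and 1.10, 1.63 and 0.795 in EHE6.

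The other fibrillar genes tested, Col2a1, Col11a1, Col11a2 and Col27a1, reached at most 6.07 CPM. Col11a2, a chain of cartilage fibrils, was at 0.515 and 0.461 CPM in EHE26, 3.50, 1.23 and 0.682 CPM in EHE17, and 1.32, 6.07 and 0.777 CPM in EHE6, lowest in the EHE26 libraries. Col27a1 was at 0.184 and 0.132 CPM in EHE26, 2.45, 1.34 and 0.361 CPM in EHE17, and 2.28, 4.66 and 0.126 CPM in EHE6. The replicate 3 libraries of EHE17 and EHE6 were low as well for Col27a1, which was called in EHE26 against EHE6 without EHE6 replicate 3, at -4.43.

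FACIT collagens decorate the surface of fibrils. Col14a1 was at 429 and 42.0 CPM in EHE26, 0.895, 0.930 and 1.16 CPM in EHE17, and 0.889, 1.37 and 2.08 CPM in EHE6. Both EHE26 libraries were far above the other 6, and replicate 1 was far above replicate 2. Col14a1 rose in EHE26, by a log2 fold change of 7.35 ± 0.94 against EHE6 (edgeR adjusted p = 0.0111) and 7.89 ± 0.96 against EHE17 (adjusted p = 0.0130). The set model called it as well, at 6.99 (adjusted p = 0.0238) and 7.47 (adjusted p = 0.0250). Without EHE26 replicate 1 the values were 4.86 and 5.40 and both were called. The call against EHE6 was lost without EHE6 replicate 1 (7.09, adjusted p = 0.0826) and without replicate 2 (7.31, adjusted p = 0.0741), and the call against EHE17 was lost without EHE17 replicate 1 (7.81, adjusted p = 0.10) and without replicate 2 (7.83, adjusted p = 0.0975). With only EHE26 and EHE6 in the fit the call against EHE6 was lost (7.34, adjusted p = 0.0742). In the second set alone neither was called, at 6.82 (adjusted p = 0.150) and 7.66 (adjusted p = 0.125). By CPM per kilobase Col14a1 held place 1754 of 18860 in EHE26, 15847 in EHE17 and 15085 in EHE6. It lies on chromosome 15 (chr15:55307750-55520803), whose 747 tested genes had a median log2 fold change of -0.57 in EHE26 against EHE6 and -0.19 in EHE26 against EHE17.

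Col12a1, which is close to Col14a1 in structure, was at 151 and 74.5 CPM in EHE26, 7.84, 8.11 and 3.93 CPM in EHE17, and 12.2, 16.8 and 112 CPM in EHE6. Col16a1 was at 62.3 and 78.9 CPM in EHE26, 1.88, 2.40 and 1.04 CPM in EHE17, and 1.27, 1.89 and 31.7 CPM in EHE6. Both genes were high in EHE26 and in EHE6 replicate 3 and low in the other 5 libraries. In EHE26 against EHE17 the log2 fold change was 4.09 ± 0.95 for Col12a1 (adjusted p = 0.101) and 5.31 ± 1.32 for Col16a1 (adjusted p = 0.121). Without EHE6 replicate 3 both were called against EHE17, at 4.08 (adjusted p = 0.00285) and 5.29 (adjusted p = 0.00126), and against EHE6, at 2.97 (adjusted p = 0.0151) and 5.49 (adjusted p = 0.00173).

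Col22a1, known from tissue junctions such as those of muscle and tendon, was at 0.0920 and 0.132 CPM in EHE26, 2.68, 1.84 and 8.21 CPM in EHE17, and 2.57, 1.48 and 0.0630 CPM in EHE6. The EHE26 libraries lay below all of EHE17, at -5.23 ± 1.56 (adjusted p = 0.176), and above EHE6 replicate 3. Without EHE6 replicate 3 it was called in EHE26 against EHE17, at -5.24, and against EHE6, at -4.16. Col9a2, a cartilage collagen chain, was at 0.0920 and 0.0439 CPM in EHE26, 1.21, 2.45 and 0.0803 CPM in EHE17, and 2.52, 1.67 and 0.105 CPM in EHE6, so that it was near 0 in all 4 libraries of the second set. Col9a3 and Col20a1 did not exceed 2.46 CPM.

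**Figure D3:**
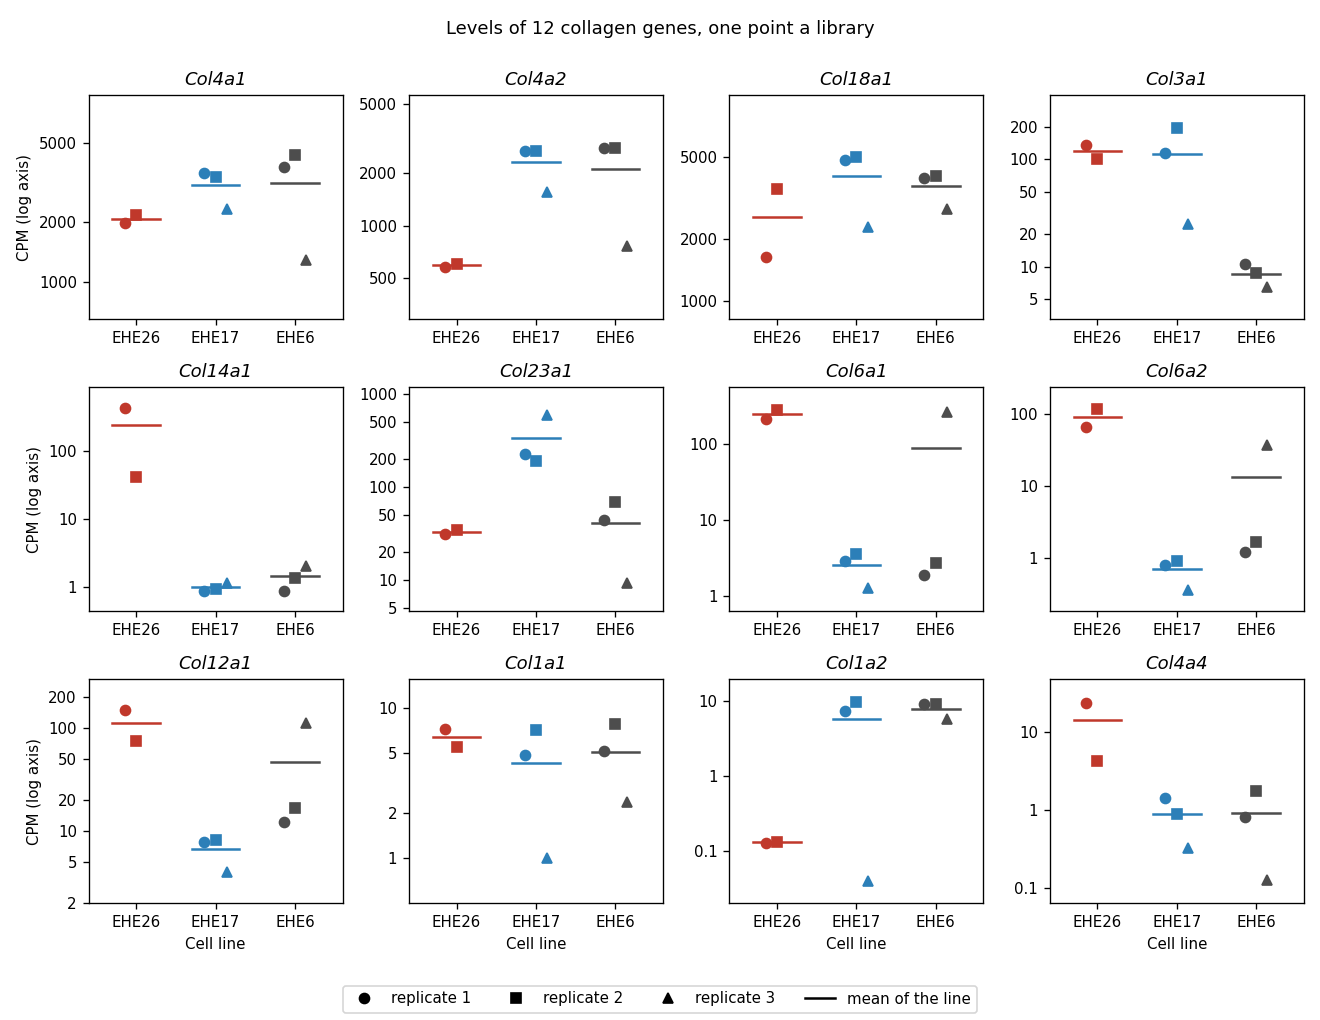
Levels of 12 collagen genes by line in CPM on log axes, with 1 point a library, its shape the replicate number, and a bar at the mean of the line. Col14a1 is high in both EHE26 libraries, Col3a1 is low in all 3 EHE6 libraries, and Col6a1, Col6a2 and Col12a1 are high in EHE26 and in EHE6 replicate 3.

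Type VI collagen forms beaded microfilaments that link cells to the matrix, from chains of Col6a1, Col6a2 and 1 further chain, most often that of Col6a3. Col6a1 was at 211 and 278 CPM in EHE26, 2.82, 3.52 and 1.24 CPM in EHE17, and 1.89, 2.70 and 258 CPM in EHE6. Col6a2 was at 65.2 and 118 CPM in EHE26, 0.808, 0.897 and 0.361 CPM in EHE17, and 1.21, 1.64 and 36.9 CPM in EHE6. EHE6 replicate 3 was thus in the range of EHE26 for Col6a1, while EHE6 replicates 1 and 2 were near EHE17. Col6a3 did not follow them in EHE26: it was at 1.42 and 4.43 CPM in EHE26, 1.23, 1.35 and 0.863 CPM in EHE17, and 2.32, 1.59 and 30.1 CPM in EHE6.

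In EHE26 against EHE17 the log2 fold change was 6.59 ± 1.97 for Col6a1 (adjusted p = 0.176) and 7.04 ± 1.53 for Col6a2 (adjusted p = 0.0858). The set model gave 2.04 (adjusted p = 0.815) and 4.46 (adjusted p = 0.264). Its assumption of 1 shift for all lines did not hold for these genes, whose replicate 3 shifts were opposite in EHE17 and EHE6. Without EHE6 replicate 3 both were called against EHE17, at 6.57 and 7.02 with an adjusted p = 9.82e-04 each, and against EHE6, at 6.74 (adjusted p = 0.00154) and 6.01 (adjusted p = 0.00179). In EHE17 against EHE6 the value for Col6a1 was -5.11 ± 1.80 (adjusted p = 0.585) with all libraries and 0.17 without EHE6 replicate 3, so its direction rested on that library. The per-kilobase ratio of Col6a1 to Col6a2 was 6.14 and 4.47 in EHE26, 6.64, 7.46 and 6.55 in EHE17, and 2.96, 3.13 and 13.3 in EHE6. That of Col6a1 to Col6a3 was 406 and 171 in EHE26, 6.26, 7.12 and 3.94 in EHE17, and 2.22, 4.62 and 23.5 in EHE6, highest in both EHE26 libraries. Col6a1 and Col6a2 lie 85.2 kb apart on the minus strand of chromosome 10. Col6a5 and Col6a6 had 0 counts in both EHE26 libraries and in EHE17 replicate 3, where a count of 0 allows up to 3 counts a library, and did not exceed 0.861 CPM elsewhere.

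Of the 10 fibroblast markers, which exclude collagens, Pdgfra and Pdgfrb were high in the same libraries as Col6a1, Col6a2, Col12a1 and Col16a1, and so was Sox9 of the cartilage list. Pdgfra, a growth factor receptor of fibroblasts, was at 77.5 and 59.8 CPM in EHE26, 1.76, 1.70 and 1.14 CPM in EHE17, and 3.87, 5.21 and 252 CPM in EHE6. Pdgfrb, of mural cells and fibroblasts, was at 63.0 and 28.9 CPM in EHE26, 1.75, 2.14 and 0.401 CPM in EHE17, and 1.41, 1.57 and 22 CPM in EHE6. Sox9, a transcription factor of cartilage and other progenitors, was at 12.7 and 32.8 CPM in EHE26, 0.621, 0.310 and 1.26 CPM in EHE17, and 0.296, 0.452 and 45.0 CPM in EHE6. The 10 endothelial markers summed to 3891 to 4954 CPM in EHE26, 5836 to 9271 CPM in EHE17, and 10105, 11808 and 2667 CPM in EHE6. Their sum was lowest in EHE6 replicate 3, though Tie1, Tek and Vwf were lower in EHE26 replicate 2. With line alone edgeR called 0 of them in each comparison. DESeq2 called 3 lower in EHE26 against EHE6, beside 5.01% of all genes in either direction. It called 1 lower in EHE26 against EHE17, beside 5.47%, and 0 in EHE17 against EHE6, beside 1.25%.

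Dcn, Thy1 and Fbn1 of the fibroblast list did not follow that pattern and were lowest, within EHE6, in replicate 3. Dcn, a proteoglycan that binds collagen fibrils, was at 206 and 18.0 CPM in EHE26, 46.7, 43.2 and 8.71 CPM in EHE17, and 15.0, 22.5 and 0.966 CPM in EHE6. Thy1, a surface glycoprotein, was at 605 and 131 CPM in EHE26, 933, 1347 and 1767 CPM in EHE17, and 398, 349 and 8.80 CPM in EHE6. Fbn1, a microfibril protein, was at 137 and 84.3 CPM in EHE26, 35.3, 59.4 and 36.0 CPM in EHE17, and 32.4, 23.3 and 13.1 CPM in EHE6, highest in both EHE26 libraries.

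Of the 10 fibroblast markers 9 were tested, and with line alone edgeR called 0 in each comparison. At an unadjusted p under 0.05 stood 3 higher and 0 lower in EHE26 against EHE6 (15.9% of all genes in either direction), 3 higher and 0 lower in EHE26 against EHE17 (16.6%), and 1 higher and 1 lower in EHE17 against EHE6 (6.90%). The set model called Fbn1 (2.82, adjusted p = 0.0236) and Lum (8.14, adjusted p = 0.0220) in EHE26 against EHE6, beside 1.89% of all genes, and Lum in EHE26 against EHE17 (9.14, adjusted p = 0.0169), beside 1.69%. Lum was at 0.773 and 0.702 CPM in EHE26, 1.11, 1.33 and 0 CPM in EHE17, and 1.91, 3.01 and 0 CPM in EHE6. Its mean was thus lower in EHE26 (0.737 CPM) than in EHE17 (0.811 CPM) or EHE6 (1.64 CPM). The set-model values of Lum rest on the counts of 0 in the replicate 3 libraries. DESeq2 called 2 of the 10 higher in EHE26 against EHE6, beside 5.01% of all genes in either direction. It called 0 in EHE26 against EHE17, beside 5.47%, and 0 in EHE17 against EHE6, beside 1.25%. The sum of the list was 324 to 1098 CPM in EHE26, 1021 to 1818 CPM in EHE17 and 298 to 454 CPM in EHE6, led by Thy1 outside EHE6 replicate 3. The rest of the list was low: Dpt did not exceed 0.166 CPM, Fap 0.699 CPM, Postn 1.34 CPM, Lum 3.01 CPM and Mfap5 7.27 CPM. The 8 smooth muscle and pericyte markers summed to 96.8 to 127 CPM in EHE26, 7.82 to 62.1 CPM in EHE17 and 204 to 672 CPM in EHE6, with Myh11 at or below 1.26 CPM. In EHE6 replicates 1, 2 and 3 Acta2 was at 659, 268 and 15.1 CPM, and Rgs5 at 8.23, 9.92 and 183 CPM. Different genes thus made up most of the EHE6 sums. Cspg4, of pericytes and other progenitors, was called in EHE26 against EHE17 (6.08, adjusted p = 0.0323), though not in the set model (5.57, adjusted p = 0.0742). The call was also lost in 6 of 8 fits that left out 1 library, and stood without EHE6 replicate 1 and without EHE6 replicate 3. The 4 cartilage markers summed to at most 47.0 CPM, nearly all of it Sox9, with Acan at or below 0.0282 CPM. The 7 leukocyte markers summed to 18.1 to 68.0 CPM. The 6 epithelial markers summed to 3.09 to 28.6 CPM in EHE26, 1.08 to 29.7 CPM in EHE17 and 23.0 to 89.8 CPM in EHE6, with Krt18 at 89.2 CPM in EHE6 replicate 3. Epcam was at 0.0368 and 0 CPM in EHE26, 3.89, 8.14 and 0 CPM in EHE17, and 9.79, 4.97 and 0 CPM in EHE6, and Krt8 and Cdh1 likewise stayed at or below 0.420 CPM in the second set and at or above 4.25 CPM in the first. Krt5 was likewise at or below 0.0401 CPM in the second set. Krt18 did not follow, at 0.582 to 89.2 CPM in the second set and 4.30 to 7.84 CPM in the first. Krt14 overlapped between the sets, at 0.189 to 0.442 CPM and 0.111 to 0.876 CPM. Col9a2, Col8a2 and Col27a1 were also low in the second set, where fewer genes had a read (20066 to 20682, against 24462 to 25177) and library totals were lower. The part of epithelial cells in the values of these 3 collagen genes was not tested. Of the 6 epithelial markers edgeR called 0 with line alone. At an unadjusted p under 0.05, 3 were lower in EHE26 against EHE6, beside 9.04% of all genes. In EHE26 against EHE17 1 was lower, beside 9.03%, and in EHE17 against EHE6 0, beside 3.10%. DESeq2 called 2, 2 and 0 lower in these comparisons, beside 5.01%, 5.47% and 1.25% of all genes in either direction. The part of other cell types in the collagen values was not tested. A list of 10 proliferation genes, such as Mki67 and Top2a, summed to 409 to 1009 CPM in the first set and 1427 to 2820 CPM in the second. The part of growth state in the collagen values was not tested either.

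Of the transmembrane collagens, Col23a1 was highest in EHE17. It was at 31.2 and 34.8 CPM in EHE26, 228, 191 and 597 CPM in EHE17, and 43.8, 69.8 and 9.14 CPM in EHE6. All 3 EHE17 libraries lay above all others, with a log2 fold change of 3.05 ± 0.75 in EHE17 against EHE6 (adjusted p = 0.300) and -3.36 ± 0.90 in EHE26 against EHE17 (adjusted p = 0.145). In the set model these were 3.06 (adjusted p = 0.204) and -3.35 (adjusted p = 0.147). DESeq2 called both, with adjusted p = 0.00319 and adjusted p = 0.00109, and edgeR called the second without EHE6 replicate 3, at -3.37. By CPM per kilobase Col23a1 held place 838 in EHE17, against 7027 in EHE26 and 6142 in EHE6. Col13a1, another transmembrane collagen, was at 0.166 and 0.351 CPM in EHE26, 13.9, 1.16 and 78.0 CPM in EHE17, and 2.68, 5.11 and 0.966 CPM in EHE6. It was lower in EHE26 than in every other library, and EHE17 ran from 1.16 CPM in replicate 2 to 78.0 CPM in replicate 3. Its log2 fold change was -6.91 ± 1.88 in EHE26 against EHE17 (adjusted p = 0.148).

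Of the remaining members, Col7a1, the anchoring fibril collagen of skin, was at 3.97 and 5.09 CPM in EHE26, 4.39, 2.04 and 6.92 CPM in EHE17, and 2.26, 5.67 and 2.46 CPM in EHE6, with no separation of lines. Col8a1, a network-forming collagen of vessels and the cornea, was at 7.93 and 1.86 CPM in EHE26, 5.18, 6.17 and 3.27 CPM in EHE17, and 6.99, 4.88 and 0.357 CPM in EHE6. Its partner Col8a2 was at 0.0736 and 0 CPM in EHE26, 2.85, 2.56 and 0.161 CPM in EHE17, and 2.53, 3.54 and 0 CPM in EHE6, near 0 in all 4 libraries of the second set. Col17a1, Col25a1 and Col28a1 did not exceed 1.09 CPM.

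**Figure D4:**
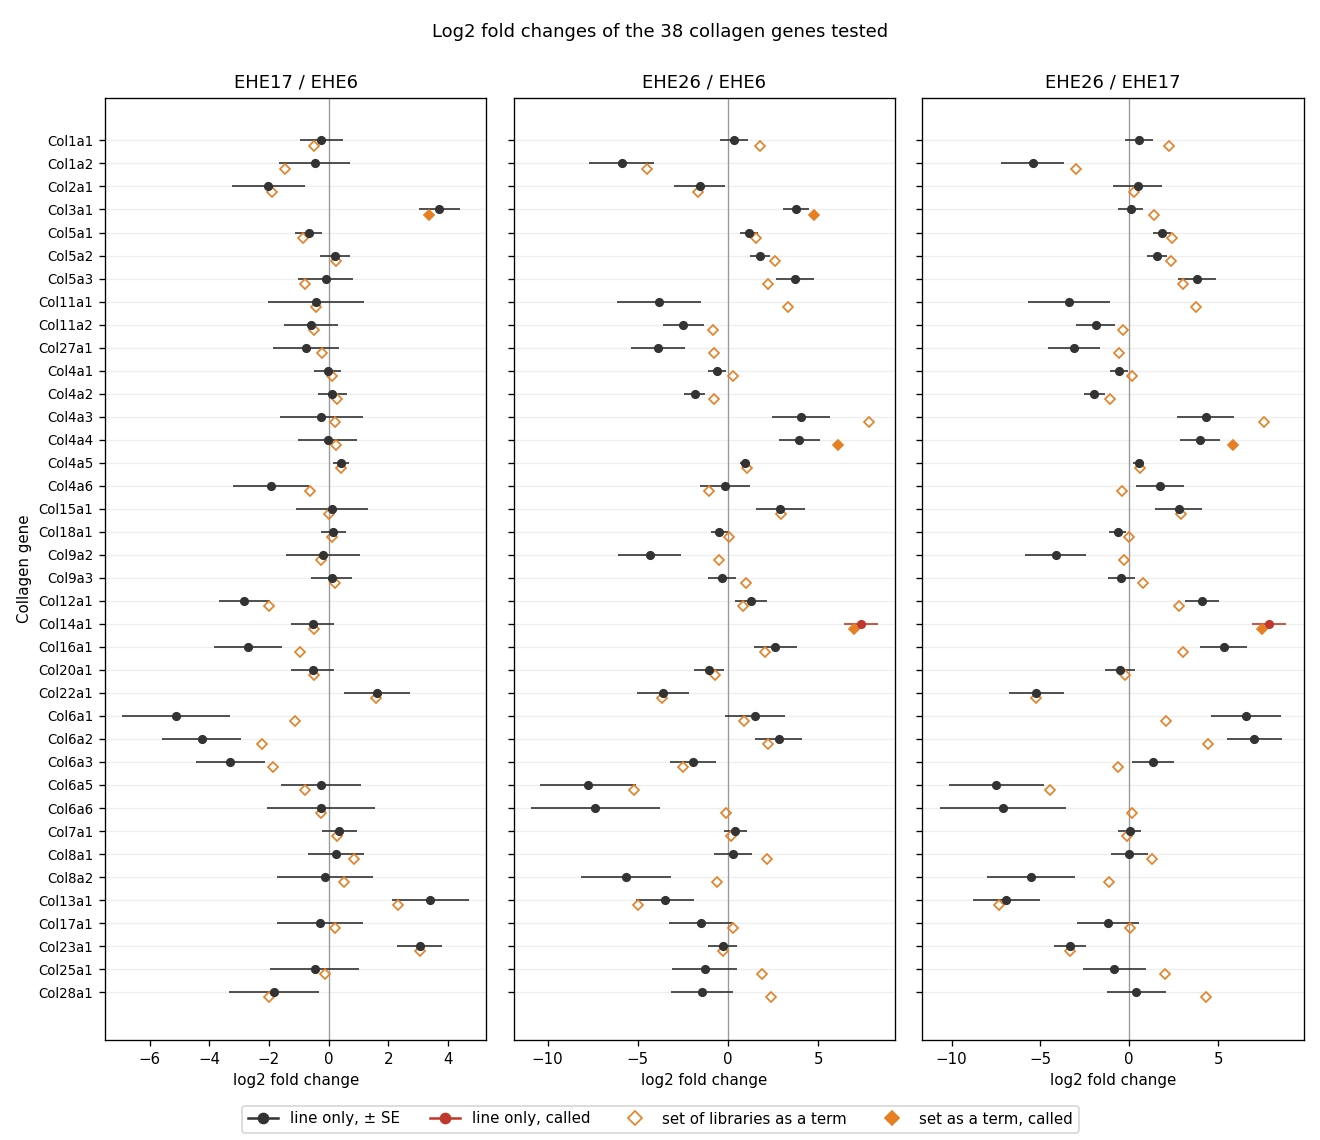
Log2 fold changes (x axis, first line over second) of the 38 collagen genes tested (y axis) in the 3 comparisons, from the model with line only (circles, with SE) and from the set model (diamonds); filled red circles and filled diamonds are called. Col14a1 is called against both lines by either model, and Col3a1 and Col4a4 by the set model alone of these. The values of Col6a5 and Col6a6 in the comparisons with EHE26, where these genes had 0 counts, depend on the prior count of the fit.

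Genes that act on collagen chains were read from lists of 56 genes, 53 of them tested. Of the 37 genes for hydroxylation, folding, export, processing and crosslinking, 36 were tested and edgeR called 0 in each comparison, beside 1.26% of all genes in EHE26 against EHE6, 1.08% in EHE26 against EHE17 and 0.143% in EHE17 against EHE6. DESeq2 called 4 higher in EHE26 against EHE6, beside 648 of 31318 genes higher (5.01% in either direction). It called 4 higher in EHE26 against EHE17, beside 673 higher (5.47% in either direction). In EHE17 against EHE6 it called 2 lower, beside 148 lower (1.25% in either direction). In EHE26 against EHE6 11 were higher and 0 lower at an unadjusted p under 0.05, beside 6.85% and 9.04% of all genes, with a median log2 fold change of 0.56, where all genes had -0.11. In EHE26 against EHE17 12 were higher and 0 lower, beside 7.56% and 9.03%, with a median of 0.53. In EHE17 against EHE6 0 were higher and 3 lower, beside 3.79% and 3.10%, with a median of -0.12. Libraries of EHE26 and EHE6 did not overlap for 16 genes higher and 2 lower in EHE26, beside 16.0% and 15.3% of all genes. The 2 lower were Bmp1 (269 and 389 CPM in EHE26, 665, 819 and 418 CPM in EHE6) and Adamts14 (8.92 and 8.36 CPM, and 10.6, 13.8 and 24.6 CPM).

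Colgalt1, which adds galactose to hydroxylysine of collagen chains, was at 459 and 559 CPM in EHE26, 226, 286 and 193 CPM in EHE17, and 257, 247 and 196 CPM in EHE6. It was higher in both EHE26 libraries than in all others, at 1.13 ± 0.27 against EHE6 (adjusted p = 0.115) and 1.11 ± 0.27 against EHE17 (adjusted p = 0.111). P4ha3, a catalytic subunit of prolyl 4-hydroxylase, was at 172 and 294 CPM in EHE26, 8.83, 9.66 and 19.8 CPM in EHE17, and 5.17, 5.04 and 88.3 CPM in EHE6, with the high EHE6 replicate 3 also seen for type VI collagen. Pcolce, an enhancer of procollagen cleavage, was at 282 and 299 CPM in EHE26, 9.02, 15.8 and 1.48 CPM in EHE17, and 12.7, 14.4 and 50.9 CPM in EHE6, at 5.05 ± 0.98 in EHE26 against EHE17 (adjusted p = 0.0646) and 3.48 ± 0.92 against EHE6 (adjusted p = 0.154). Serpinh1, the collagen chaperone HSP47, was at 1781 and 1506 CPM in EHE26, 708, 1109 and 538 CPM in EHE17, and 1515, 1139 and 802 CPM in EHE6, where EHE26 and EHE6 overlapped. Sparc, a collagen-binding matrix protein, was the most abundant of these genes, at 7269 and 6895 CPM in EHE26, 5495, 7304 and 5036 CPM in EHE17, and 9266, 8813 and 2786 CPM in EHE6, with no order of the lines.

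Of 10 collagen receptor genes 8 were tested. Itgb1, the beta subunit of the collagen-binding integrins, was at 3248 and 3098 CPM in EHE26, 1470, 927 and 1877 CPM in EHE17, and 1633, 1933 and 1853 CPM in EHE6, highest in both EHE26 libraries. Mrc2, an endocytic receptor that takes up collagen fragments, was at 11.7 and 17.4 CPM in EHE26, 0.547, 0.620 and 0.161 CPM in EHE17, and 0.822, 1.16 and 2.19 CPM in EHE6. It rose in EHE26 against EHE17, by 5.02 ± 0.72 (adjusted p = 0.0231), and was at 3.39 ± 0.68 against EHE6 (adjusted p = 0.0666). The set model called it against EHE17, at 5.0 (adjusted p = 0.0487), but the call with line alone was lost without EHE17 replicate 1, EHE17 replicate 2, EHE26 replicate 1 or EHE26 replicate 2 (5.19, 5.33, 5.28 and 4.72). Ddr2, a receptor kinase for fibrillar collagen, was at 17.6 and 33.1 CPM in EHE26, 17.0, 10.3 and 14 CPM in EHE17, and 69.4, 71.5 and 139 CPM in EHE6. All EHE6 libraries were above all others, the reverse of the order for Col3a1, and the log2 fold change was -2.76 ± 0.41 in EHE17 against EHE6 (adjusted p = 0.0679) and -1.88 ± 0.46 in EHE26 against EHE6 (adjusted p = 0.123). Ddr2 was called in EHE17 against EHE6 in the set model, at -2.68 (adjusted p = 0.0260), and without EHE6 replicate 3, at -2.34 (adjusted p = 0.0478).

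Among 9 non-collagen basement membrane genes, Agrn, a heparan sulfate proteoglycan, was at 307 and 321 CPM in EHE26, 221, 176 and 130 CPM in EHE17, and 52.6, 81.2 and 29.1 CPM in EHE6. It was called in EHE26 against EHE6, at 2.53 ± 0.43 (adjusted p = 0.0357), and was at 1.69 ± 0.39 in EHE17 against EHE6 (adjusted p = 0.261). The set model called both, at 3.22 (adjusted p = 0.00750) and 1.77 (adjusted p = 0.0323). The call of Agrn in EHE26 against EHE6 was lost without EHE6 replicate 1, EHE17 replicate 1, EHE17 replicate 2, EHE26 replicate 1 or EHE26 replicate 2 (2.51, 2.53, 2.54, 2.56 and 2.52). Nid2, which links laminin to type IV collagen, was at 3.18 and 0.241 CPM in EHE26, 544, 532 and 58.3 CPM in EHE17, and 437, 565 and 6.43 CPM in EHE6, lower in every library of the second set than in the first. Its log2 fold change was -7.61 ± 2.25 in EHE26 against EHE6 (adjusted p = 0.191).

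**Figure D5:**
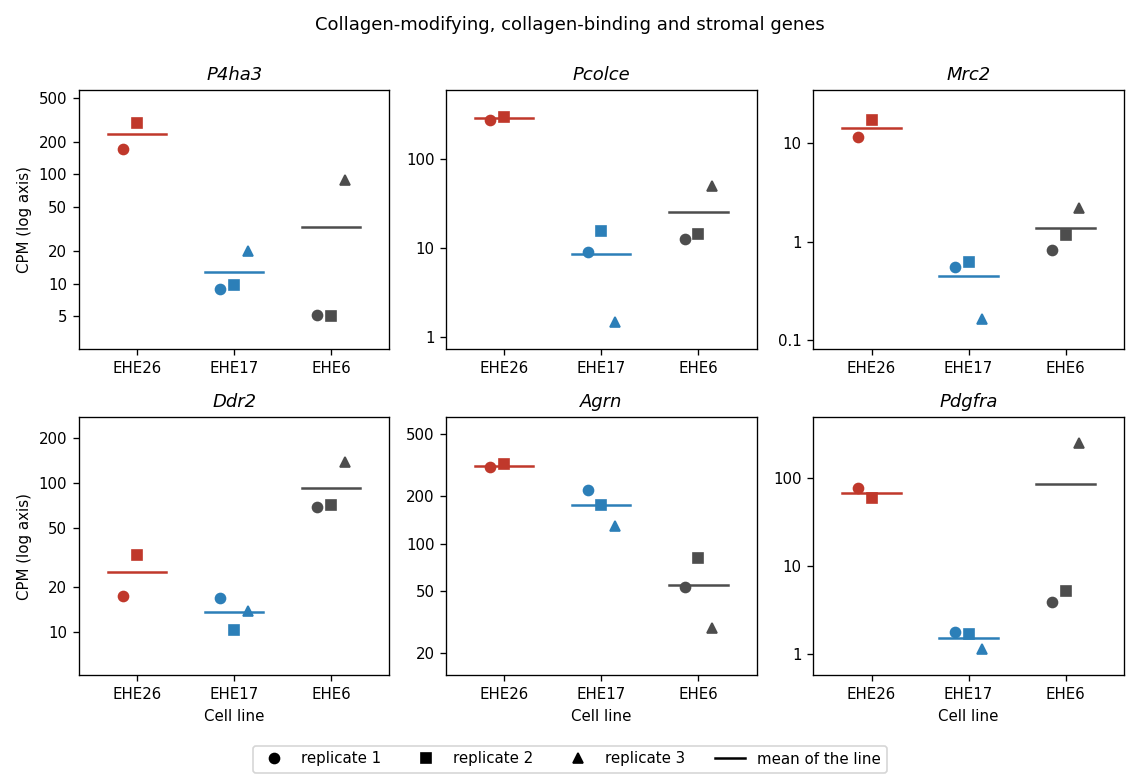
Levels of 5 genes that modify or bind collagen or share its basement membrane, and of Pdgfra, by line in CPM on log axes, with 1 point a library and a bar at the mean of the line. P4ha3 and Pdgfra are high in EHE26 and in EHE6 replicate 3, Ddr2 is highest in the 3 EHE6 libraries, and Agrn is lowest there.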

How the data were processed

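Libraries of polyA RNA (RNeasy Mini, then NEBNext Ultra II) were sequenced, per the labels. Reads were aligned with HISAT2 to mm10, per the submitters' processing notes, which give no version. The counting tool, annotation and strand setting are not given in the sources used here. The authors deposited raw counts per Ensembl gene, and 8 of 8 sample files equal their matrix column. Symbols, positions and exon lengths came from GENCODE M21 (55141 identifiers matched; the others held at most 0.0181% of a library's counts). Library totals were 44620965 to 96237665.

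After filterByExpr, 18882 genes remained, which were TMM-scaled and fitted with the quasi-likelihood model of edgeR 4.0.16 (R 4.3.3) on all 8 libraries, with line as the only term. The SE is the absolute log2 fold change divided by the square root of F. The biological coefficient of variation (common) came to 0.600, or 0.427 in the set model. DESeq2 1.42.0 and other settings were alternatives. Figures used Python 3.11.15 and matplotlib 3.10.9. The fits were tested on simulated data.

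Replicate numbers were checked for pairing by the correlation of deviations from line means. Same-numbered EHE17 and EHE6 libraries gave 0.132, 0.180 and 0.574, all above 0.1, and the replicate number was fitted as a block in an alternative. Within the first set, unlike numbers correlated more closely (0.536 for EHE6 replicate 1 with EHE17 replicate 2, and 0.623 for EHE6 replicate 2 with EHE17 replicate 1). A pairing by number is therefore not established by these values. Same-numbered pairs with EHE26 gave -0.115 to 0.182.

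The members, lists and alternatives were chosen with earlier results of these data known. Values in every library are printed for members called by either model, for the 4 most abundant of each class, and for those whose lines do not overlap with a log2 fold change of 2 or more in size and a mean of 1 CPM or more in the higher line. A few further members, and the pathway and marker genes, were added by role or after their values were seen.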

Additional observations from a re-analysis of the deposited data

Results flagged for a closer look

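The replicate 3 libraries of EHE17 and EHE6 lay on opposite sides of replicates 1 and 2 of their own line for 11 of the 44 collagen genes. No such count was made over all genes, so the 11 cannot be set against a general share. The values are the log2(CPM + 0.1) of replicate 3 minus the mean of replicates 1 and 2. In 6 of the genes they reached 1 in size in both lines and the highest library reached 10 CPM. Col6a1 gave -1.27 in EHE17 and 6.78 in EHE6. Col6a2 gave -1.04 in EHE17 and 4.61 in EHE6. Col12a1 gave -1.0 in EHE17 and 2.96 in EHE6. Col15a1 gave -5.40 in EHE17 and 1.76 in EHE6. The transmembrane genes ran the other way, with Col13a1 at 4.21 in EHE17 and -1.84 in EHE6, and Col23a1 at 1.52 in EHE17 and -2.58 in EHE6. The other 5 genes, below one of those limits, were Col16a1 (-0.96 in EHE17 and 4.27 in EHE6), Col6a3 (-0.53 and 3.90), Col22a1 (1.84 and -3.66), Col5a1 (-1.90 and 0.30) and Col2a1 (-1.22 and 1.36). Each value rests on 1 replicate 3 library, and the difference between the lines was not tested.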

How the results depend on the processing

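With 2 or 3 libraries a line, most collagen differences missed the threshold, which does not show that levels were alike. Collagen genes called in EHE26 against EHE6, EHE26 against EHE17 and EHE17 against EHE6 numbered 12, 14 and 3 with DESeq2, 3, 10 and 2 with no filter on low counts, 3, 2 and 1 in the set model, and 3, 10 and 9 in the second set alone, where EHE17 and EHE6 have 1 library each, assumed to vary like the EHE26 pair. They were 1, 1 and 0 with upper quartile factors, beside 219, 189 and 27 of all genes, and 1 in EHE17 against EHE6 in the first set alone. With only the 2 lines compared they were 2 and 8 for the EHE26 comparisons. Leaving out 1 library gave 0 to 9, 0 to 9 and 0 to 1. All genes called numbered 1570, 1712 and 392 with DESeq2, 547, 745 and 142 with no filter, 356, 319 and 102 in the set model, 126, 764 and 7 with only the 2 lines, and 334, 612 and 473 in the second set alone. They were 97 in EHE17 against EHE6 in the first set alone, and leaving out 1 library gave 65 to 1632, 2 to 1415 and 1 to 54. The low ends came without EHE6 replicate 1 (65), without EHE17 replicate 2 (2) and without EHE17 replicate 1 (1), and the high ends without EHE6 replicate 3.

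With replicate number as a block, EHE17 against EHE6 gave 33 genes, where the model without it gave 27, and 0 collagen genes in both. With only these 2 lines the block gave 19 genes and 0 collagen genes. The block changed no collagen call there. For EHE26, whose numbers do not pair, the block gave 1459 genes and 6 collagen genes against EHE6 and 1860 and 11 against EHE17.

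Of 765 values for 50 pairs of a named member and a comparison, 646 kept their direction and side of the threshold, 103 gained a call, 7 lost one and 9 reversed. Reversed values were, in the second set alone, Col1a2 in EHE26 against EHE17 (1.64) and Col27a1 (0.32) and Col22a1 (0.79) in EHE26 against EHE6. In the set model they were Col4a1 (0.16) and Col6a3 (-0.66) in EHE26 against EHE17. In EHE17 against EHE6 they were Col16a1 and Col6a1 in the first set alone (0.45 and 0.48) and without EHE6 replicate 3 (0.19 and 0.17), where leaving out 1 library at a time gave -3.23 to 0.19 and -5.68 to 0.17. The set alternatives use other libraries or terms, and the cause was not tested. The first set alone, the second set alone and the block with only 2 lines were chosen after seeing the data. The sets used in the set model were likewise read from these data, and no label gives them. Below about 0.1 CPM a library holds only a few counts, and differences there were not detectable at this depth.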
